A study of Mus musculus with 12 samples.

Results

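The genes described here are 38 mouse genes of the interferon response and of antigen presentation by MHC class I. They were named by role: transcription factors, antiviral effectors, ISG15 and its protease, RNA sensors, GTPases, immunoproteasome subunits, peptide loading factors, class I chains and the checkpoint ligand Cd274. Each gene was represented by the probe set with a single gene symbol and the highest mean over the 12 arrays. Such a probe set was found for 35 of the 38 genes, out of 18193 genes with one on the array. Ifi44, Isg15 and H2-T23 are not analysed here. The values are log2 signals, so a difference of 1 is a 2-fold change.

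The study compared 3 kinds of cultured neural cell with lines made from them by adding an activated HRas. Every group came from p53-/- mice of the BL6 strain, from embryonic brain of day 14.5, and held 2 arrays. NSCL61, OPCL61 and ASTL61 are stable lines made from neural stem cells, oligodendrocyte precursor cells and astrocytes by electroporation of a plasmid for EGFP and HRasL61 with a second plasmid for neomycin resistance. Neomycin at 0.5 mg/ml and a sort for GFP selected the cells. Their parents are NSC, OPC and AST. NSC were grown as floating spheres without serum in medium with PDGF at 10 ng/ml and bFGF. OPC were derived from NSC with PDGFAA at 10 ng/ml, bFGF at 2 ng/ml and 0.25% serum and were purified by immunopanning. AST were derived from NSC by 10% serum over 3 weeks. The labels give no parent cells taken through electroporation, neomycin and sorting, so HRasL61 and those steps cannot be told apart. The labels do not say that the 2 arrays of a group came from separate cultures, so p-values measure only the spread between these arrays.

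Interferons are secreted signals that bind receptors on nearly every cell, and their receptors act through JAK kinases on transcription factors of the STAT and IRF families. Type I interferons work mainly through a complex that contains Stat2 and Irf9 and binds the interferon-stimulated response element (ISRE), and interferon gamma works mainly through STAT dimers at GAS elements and through Irf1. The induced genes block virus replication, sense foreign RNA, and raise the machinery that cuts, transports and presents peptides on MHC class I for cytotoxic T cells. In the brain, neural cells are known for low class I, and tumour cells with low class I can escape T cells.

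The 12 arrays had medians between 5.157 and 5.211. A gene entered the test when some group mean exceeded 5.183, the median over all values, and a signal under that level may be background, so that a difference to it is then understated. Of the 35 genes, 27 passed and 8 did not: Irf7, Ifit1, Oasl2, Mx1, Parp14, Dhx58, Psmb9 and Nlrc5. The 2-sided p-values came from a limma model of all 12 arrays, adjusted by the Benjamini-Hochberg method over 12835 genes with a threshold of 0.05. The labelled cell types were checked against markers. Sox2, a stem cell factor, had 4.41 and 6.79 in the NSC arrays, against 11.99 and 11.89 in OPC and 10.07 and 10.31 in AST. Gfap, the astrocyte filament, had 5.42 and 5.73 in AST, but 7.73 and 6.07 in OPC. Summed linear signals of 7 astrocyte markers were 308 and 303 in AST and 13480 and 14114 in OPC. Aldoc, at 13.52 and 13.58 in OPC, made most of the OPC sum, though 5 of the 7 markers were higher in OPC than in AST. The AST label was not borne out by this list. Sums of 6 neural stem cell markers were 446 and 479 in NSC, 1614 and 1760 in AST and 5140 and 4838 in OPC. Sox2 made most of the OPC and AST sums. The NSC label was not borne out by that list either. Olig2, a factor of the oligodendrocyte lineage, had 12.31 and 12.24 in OPC. Summed linear signals of 7 fibroblast and pericyte markers were 38260 and 38383 in NSC and 17259 to 24347 in the AST and ASTL61 arrays, but 210 to 1458 in the other arrays. Of 14 microglia and macrophage markers, 2 to 5 lay above 5.183 in an array, and Ptprc (CD45) lay between 2.79 and 3.17 in all 12. The 5′ probe set for 18S ribosomal RNA, a quality control, differed within groups, with 8.06 and 11.67 in NSCL61, 7.91 and 12.13 in NSC and 8.71 and 12.59 in OPC.

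The 2 NSC arrays stood apart from each other in these genes. NSC array 1 was above NSC array 2 by more than 1 in 7 of the 35 genes (20%), against 245 of 18193 genes (1.35%) on the same arrays. These were Usp18 with a difference of 1.89, Psmb8 with 1.68, Gbp2 with 1.51, Oasl2 with 1.48, Ifit1 with 1.34, Ifih1 with 1.29 and Tap2 with 1.10. Trim25 went the other way, with -1.23. The class I chain B2m differed by 0.13, Irf1 by 0.04 and Irgm1 by -0.21 between these arrays. In AST only Gbp2, with 1.42, passed that size, and in the other 4 groups no gene of the 35 did. The NSC arrays also carried the 18S difference given above, as did those of NSCL61 and OPC. Some cell type markers differed between the NSC arrays too, such as Sox2 (4.41 and 6.79) and Lum (7.655 and 5.3). Others were close, such as Col1a2 (13.8 and 13.66). The part of the 18S and marker differences in these values was not tested. Values without 1 of the NSC arrays are therefore given beside a number of the results on NSC. With 1 array of a group left out, the lone array is assumed to vary like the other groups. The p-value of such a fit leaves out the gap between that group's arrays.

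**Figure D1:**
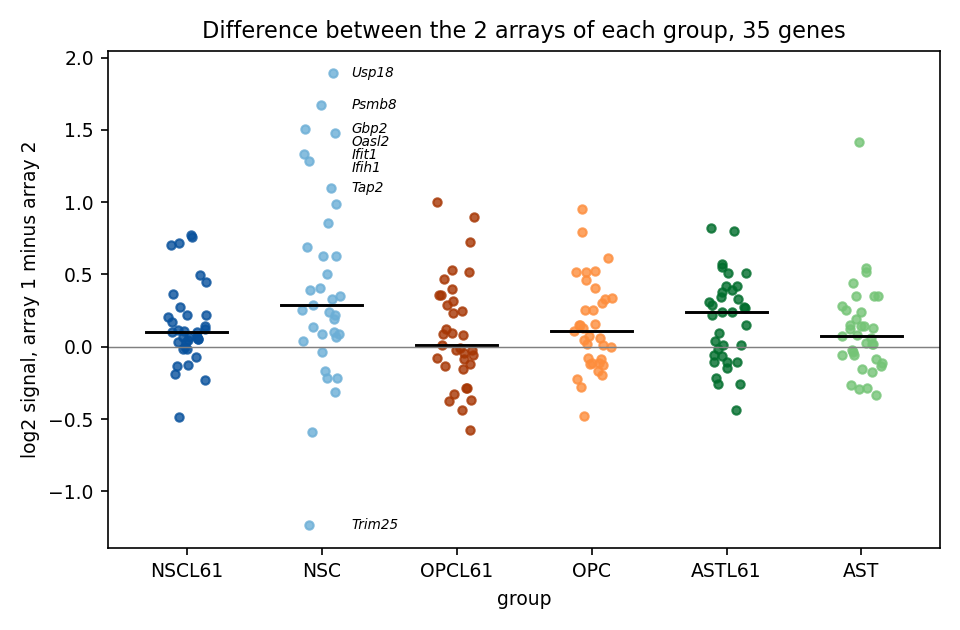
The vertical axis shows the log2 signal of array 1 minus that of array 2 for the 35 genes in each of the 6 groups, 1 point a gene, with a bar at the median. NSC had the widest spread, with 7 genes above 1 and Trim25 at -1.23, and its genes past 1 either way are named. The median of the NSC points was 0.29.

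Promoter sequence was available for 28 of the 35 genes, as RefSeq windows of assembly GRCm38.p6 that run 250 bases before to 50 bases after the annotated start. Both strands were searched for the ISRE letters, GAAA followed after any 2 bases by GAAA, and the GAS letters TTCNNNGAA. The ISRE letters were in 11 of the 35 windows of these genes (31.4%) and in 1131 of all 32851 RefSeq windows (3.44%). The GAS letters were in 7 windows (20%), against 2726 of all windows (8.3%). A match describes the letters only, and a window with no match says nothing of the factor. Either match was in 16 of the 35 windows (45.7%), against 3708 of all windows (11.3%). No match was found in the windows of Tapbp, Irf9, Xaf1, H2-D1, H2-K1 and Cd274, which were also called in a line against its parent. The windows of 6 genes with a match, among those the results turn on, are printed 5′ to 3′ along the gene. Matched letters are in capitals. B2m and Irf1 went opposite ways in 2 lines. The NSCL61 call of B2m and the OPCL61 call of Irf1 were lost without some single arrays. Gbp2 and Irgm1 were lower in NSCL61, Ifit3 was higher in NSCL61, and Gbp3 was lower in OPCL61. B2m (chr2:122147437-122147736, plus strand) had an ISRE match starting at -139. Irf1 (chr11:53769764-53770063, plus strand) had a GAS match at -90. Gbp2 (chr3:142620413-142620712, plus strand) had an ISRE match at -59, and its neighbour Gbp3 (chr3:142559794-142560093, plus strand) had 2 overlapping ISRE matches at -45 and -39. Irgm1 (chr11:48871371-48871670, minus strand) had 2 overlapping ISRE matches at -30 and -24. Ifit3 (chr19:34583279-34583578, plus strand) had ISRE matches at -156 and -122.
B2m: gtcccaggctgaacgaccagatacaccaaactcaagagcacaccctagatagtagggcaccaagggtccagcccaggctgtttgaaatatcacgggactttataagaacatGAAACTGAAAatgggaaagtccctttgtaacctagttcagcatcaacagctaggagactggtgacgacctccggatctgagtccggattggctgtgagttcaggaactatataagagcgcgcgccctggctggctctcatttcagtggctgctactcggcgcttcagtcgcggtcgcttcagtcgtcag
Irf1: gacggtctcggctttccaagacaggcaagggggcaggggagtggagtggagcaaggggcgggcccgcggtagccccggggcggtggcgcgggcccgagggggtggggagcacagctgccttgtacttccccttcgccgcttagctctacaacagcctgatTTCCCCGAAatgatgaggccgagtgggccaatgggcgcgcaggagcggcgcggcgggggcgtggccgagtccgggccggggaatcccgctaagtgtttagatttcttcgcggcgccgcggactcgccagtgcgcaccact
Gbp2: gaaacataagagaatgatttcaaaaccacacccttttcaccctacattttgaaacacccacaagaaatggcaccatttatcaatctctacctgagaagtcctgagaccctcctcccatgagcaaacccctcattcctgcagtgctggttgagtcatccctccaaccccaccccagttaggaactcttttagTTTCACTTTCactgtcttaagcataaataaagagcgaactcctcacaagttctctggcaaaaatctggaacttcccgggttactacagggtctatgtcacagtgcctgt
Gbp3: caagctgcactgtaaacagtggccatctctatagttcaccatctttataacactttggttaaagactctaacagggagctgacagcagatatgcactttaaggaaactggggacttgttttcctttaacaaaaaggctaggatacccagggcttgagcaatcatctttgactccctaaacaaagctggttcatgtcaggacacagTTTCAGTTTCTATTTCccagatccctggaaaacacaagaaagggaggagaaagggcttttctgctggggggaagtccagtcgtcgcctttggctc
Irgm1: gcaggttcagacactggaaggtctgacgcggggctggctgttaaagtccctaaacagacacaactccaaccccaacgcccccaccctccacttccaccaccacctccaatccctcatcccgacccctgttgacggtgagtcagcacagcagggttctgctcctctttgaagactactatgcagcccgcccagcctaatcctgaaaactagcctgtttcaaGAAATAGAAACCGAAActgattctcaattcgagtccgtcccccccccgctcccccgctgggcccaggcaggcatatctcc
Ifit3: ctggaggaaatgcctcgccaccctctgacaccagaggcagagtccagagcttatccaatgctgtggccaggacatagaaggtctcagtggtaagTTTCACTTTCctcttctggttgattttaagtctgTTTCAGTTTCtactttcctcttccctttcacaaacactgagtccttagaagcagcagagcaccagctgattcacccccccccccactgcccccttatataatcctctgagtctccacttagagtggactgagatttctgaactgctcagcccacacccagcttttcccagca

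**Figure D2:**
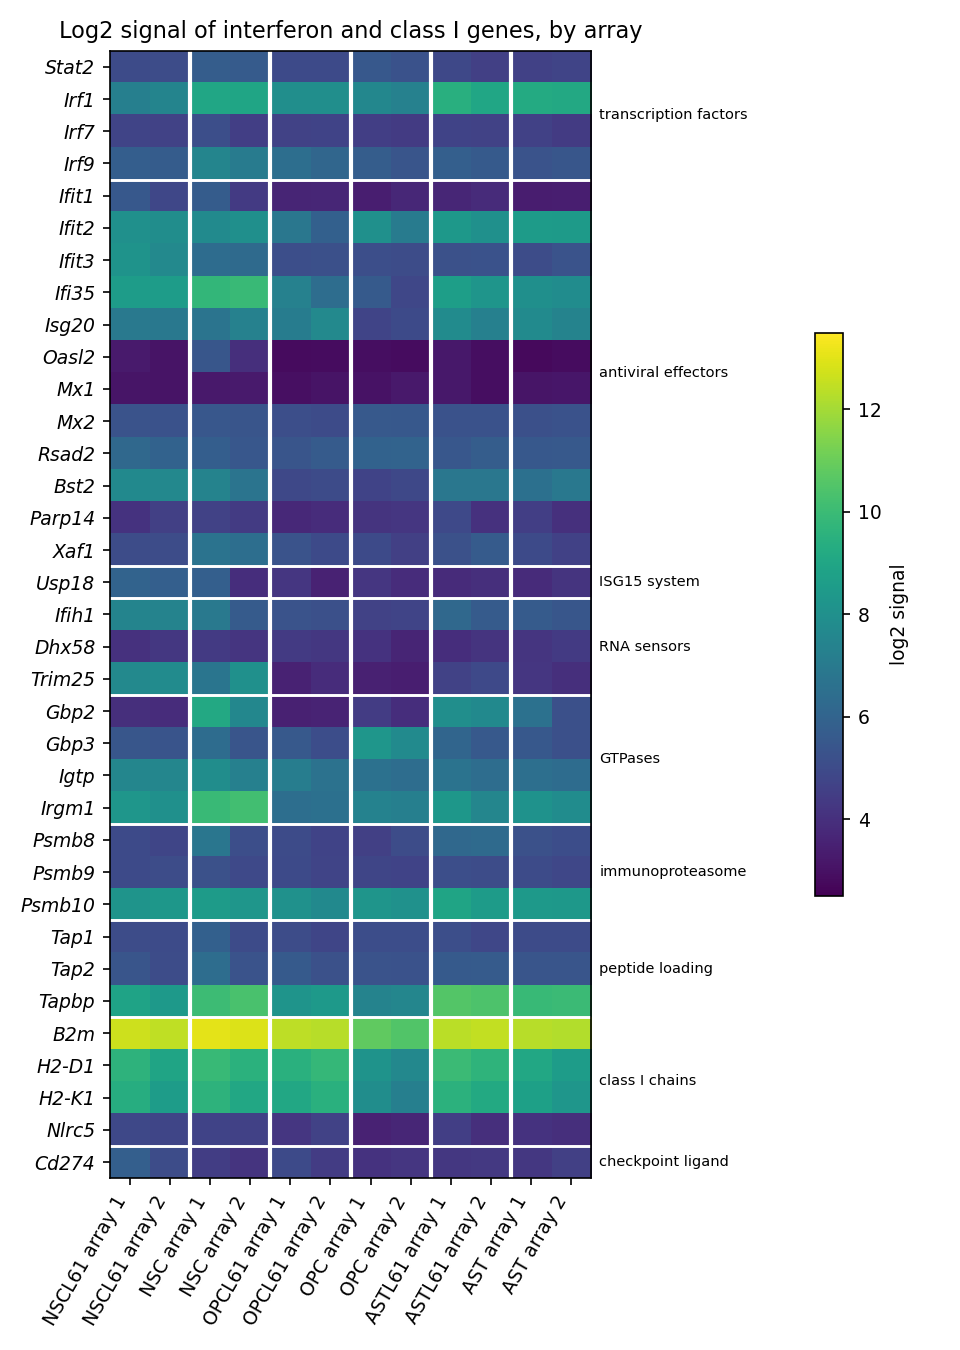
Colour gives the log2 signal of each of the 35 genes (down, grouped by role) in each of the 12 arrays (across). The OPC columns are darker than those of the other groups for B2m, H2-D1, H2-K1, Isg20 and Ifi35 and brighter for Gbp3. Gbp2 is brighter in NSC and ASTL61 than in NSCL61, OPCL61 and OPC. All genes share the same colour scale, and levels of different probe sets are not compared here.

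NSCL61 was set against NSC to ask how the genes stood in the stem cell line after HRasL61. The GTPase gene Gbp2 fell 21.5-fold, and the GTPase Irgm1, the transcription factors Irf1, Irf9 and Stat2, tapasin (Tapbp), Xaf1, Ifi35 and B2m fell too. The antiviral gene Ifit3, the RNA sensor Ifih1, Bst2 and the checkpoint ligand Cd274 rose. In all, 4 of the 35 genes were higher and 9 lower. These 13 are 48.1% of the 27 tested, against 37.8% of all tested genes called in either direction (20.7% higher and 17.1% lower). A gene can pass the filter through the group in which it is high alone, so each share of the 27 is only a description, and the share of all 35 without the filter is given too. Without the filter 3 were higher and 10 lower (37.1%), against 27.1% of 18193 genes. The arrays of the groups did not overlap in 20 of the 35 genes, against 63.4% of all genes. The median log2 difference of the 35 genes was -0.19, against 0.02 over all genes. In bulk RNA, fewer cells of a type and less RNA per cell cannot be told apart. The fibroblast and pericyte markers moved in the same comparison, with sums of 255 and 245 in NSCL61 and 38260 and 38383 in NSC and all 7 markers lower. Of 6 neural stem cell markers 4 were higher, with sums of 4908 and 4370 in NSCL61 and 446 and 479 in NSC, and of 6 OPC markers 4 were lower. The part of these markers in the results was not tested.

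Of the 4 transcription factors, 3 were lower in NSCL61. Irf1, which drives interferon gamma targets and class I genes, had 7.23 and 7.47 in NSCL61, against 9.02 and 8.98 in NSC. Both NSCL61 arrays lay below both NSC arrays, a log2 difference of -1.65 ± 0.16 (SE; adjusted p = 4.54e-05). Irf9, the DNA-binding part of the type I interferon complex, had 5.81 and 5.68 in NSCL61, against 7.50 and 7.09 in NSC, with no overlap and a difference of -1.55 ± 0.18 (adjusted p = 0.000171). Stat2, its partner, had 5.03 and 5.04 in NSCL61 and 5.76 and 5.67 in NSC, a smaller difference of -0.68 ± 0.14 (adjusted p = 0.00393). Its NSCL61 arrays lay under 5.183 and may be background. Irf7, which amplifies type I interferon production, stayed under 5.183 in all 12 arrays and was not tested.

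The GTPases of the GBP and IRG families attack the vacuoles of intracellular microbes. Gbp2 had 3.99 and 3.89 in NSCL61, against 9.12 and 7.61 in NSC. NSCL61 thus lay under 5.183 in both arrays while both NSC arrays were well above it, and the difference was -4.43 ± 0.51 (adjusted p = 0.000145). Without NSC array 1, the higher of the pair, it was -3.67. Irgm1 had 8.26 and 8.04 in NSCL61 and 9.95 and 10.16 in NSC, with no overlap and a difference of -1.91 ± 0.23 (adjusted p = 0.000199). Igtp, a regulator of the same family, had 7.57 and 7.53 in NSCL61 against 7.91 and 7.29 in NSC, and its arrays overlapped (adjusted p = 0.894). Gbp3 did not pass the test either, with a difference of -0.49 (adjusted p = 0.279), and without NSC array 2 it was -0.99.

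The antiviral effectors moved both ways, with 2 of 12 higher, 2 lower and 8 not called or not tested. Ifit3, a member of the family that binds foreign RNA, had 8.16 and 7.66 in NSCL61, against 6.37 and 6.30 in NSC. It was higher in both NSCL61 arrays, by 1.57 ± 0.17 (adjusted p = 8.45e-05), or 2.97-fold. Xaf1, an antagonist of an inhibitor of cell death, had 5.06 in both NSCL61 arrays, against 6.71 and 6.47 in NSC, a difference of -1.53 ± 0.21 (adjusted p = 0.000461). The NSCL61 values of Xaf1 lay under 5.183 and may be background. Ifi35, a leucine zipper protein induced by interferon, had 8.56 and 8.58 in NSCL61 and 9.79 and 9.96 in NSC, a difference of -1.30 ± 0.31 (adjusted p = 0.00961). That call was lost without NSC array 2 (adjusted p = 0.0506) and without NSCL61 array 1 (0.0528). Bst2, tetherin, which holds budding virus at the cell surface, had 7.70 and 7.65 in NSCL61 and 7.43 and 6.74 in NSC, a difference of 0.59 ± 0.21 (adjusted p = 0.0499). The Bst2 call was lost without NSC array 2 (0.24, adjusted p = 0.334), without NSCL61 array 1 (adjusted p = 0.178) and without NSCL61 array 2 (adjusted p = 0.138). Without NSC array 1 the Bst2 difference was 0.93. Ifit2, of the same family as Ifit3, had 8.00 and 7.90 in NSCL61 and 7.76 and 7.98 in NSC, and the arrays overlapped (adjusted p = 0.885). Mx1, a dynamin-like block to influenza virus, lay between 2.92 and 3.30 in all 12 arrays. Oasl2, of the oligoadenylate synthetase family, had 3.30 and 3.09 in NSCL61, against 5.44 and 3.97 in NSC. It was called only when the filter was dropped, with -1.51 ± 0.36 (adjusted p = 0.0111 over 18193 genes). Without NSC array 1 the Oasl2 difference was -0.77 (adjusted p = 0.00688), and without NSCL61 array 2 the call was lost (-1.41, adjusted p = 0.0731).

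Of the RNA sensors, Ifih1 (MDA5) had 7.48 and 7.41 in NSCL61, against 6.96 and 5.67 in NSC. Its arrays did not overlap, and the difference was 1.13 ± 0.34 (adjusted p = 0.0276). The call was lost without NSC array 2 (0.49, adjusted p = 0.135), NSCL61 array 1 (adjusted p = 0.116) or NSCL61 array 2 (adjusted p = 0.094), and without NSC array 1 the difference was 1.77. Usp18, which removes ISG15 from proteins and dampens the type I receptor, had 6.02 and 5.85 in NSCL61 and 5.82 and 3.93 in NSC. It did not pass (1.06, adjusted p = 0.123), and without NSC array 1 the difference was 2.00. Trim25, a ubiquitin ligase of RNA sensing, had 7.69 and 7.82 in NSCL61 and 6.78 and 8.01 in NSC, where the arrays overlapped. It was not called, and without NSC array 2 the difference was 0.98.

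Of the presentation genes, Tapbp and B2m were called in NSCL61, both lower. Tapbp, tapasin, which bridges the peptide transporter and class I, had 8.87 and 8.43 in NSCL61, against 10.04 and 10.35 in NSC. It was lower in both NSCL61 arrays, by -1.54 ± 0.18 (adjusted p = 0.000143). B2m, the light chain of every class I molecule, had 12.65 and 12.43 in NSCL61 and 13.05 and 12.92 in NSC, a small difference of -0.44 ± 0.13 (adjusted p = 0.0271). The B2m call was lost without NSC array 1 (-0.38, adjusted p = 0.123), NSC array 2 (adjusted p = 0.0504) or NSCL61 array 2 (adjusted p = 0.182). The heavy chains overlapped between the groups. H2-D1 had 9.62 and 8.92 in NSCL61 and 9.92 and 9.52 in NSC (-0.45, adjusted p = 0.271), and H2-K1 had 9.36 and 8.60 in NSCL61 and 9.60 and 9.10 in NSC (-0.37, adjusted p = 0.402). Their probe sets share probes with related class I transcripts, as does that of Gbp2 with related GTPases, so each reads a mixture. Among the NSCL61 and NSC arrays, the transporter gene Tap2 and the immunoproteasome gene Psmb8 were high in NSC array 1 alone. Psmb8 had 4.95 and 4.81 in NSCL61 and 6.80 and 5.12 in NSC (-1.08, adjusted p = 0.0724), and Tap2 had 5.41 and 5.05 in NSCL61 and 6.42 and 5.32 in NSC (-0.64, adjusted p = 0.125). Without NSC array 2 the differences were -1.92 in Psmb8, -1.19 in Tap2 and -0.83 in Tap1. Cd274, PD-L1, which restrains T cells, had 5.85 and 5.07 in NSCL61 and 4.50 and 4.14 in NSC, with all values but that of NSCL61 array 1 under 5.183. The difference was 1.14 ± 0.26 (adjusted p = 0.0071). Without NSCL61 array 1 the gene did not pass the filter, and with no filter the difference was then 0.75 (adjusted p = 0.0648).

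**Figure D3:**
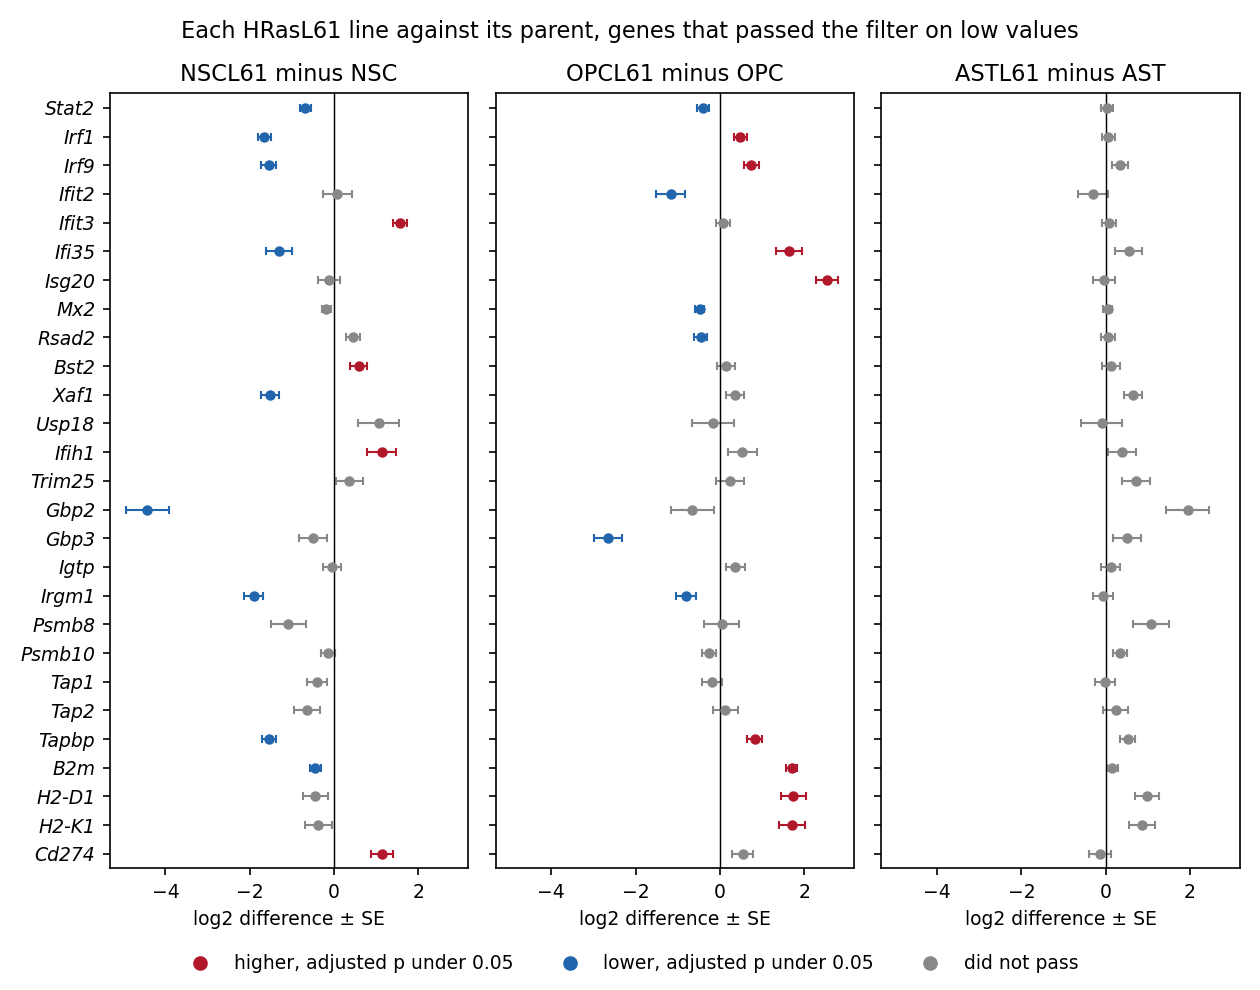
Points give the log2 difference of each HRasL61 line from its parent for the 27 genes that passed the filter on low values, with bars of 1 SE from the limma model. The NSCL61 panel has 4 genes higher and 9 lower, led by Gbp2 at -4.43, the OPCL61 panel has 8 higher and 6 lower, and the ASTL61 panel has none past the threshold.

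OPCL61 against OPC asked the same of the precursor line. Here the class I chains B2m, H2-D1 and H2-K1 rose more than 3-fold, and Tapbp, Irf9, Irf1, Ifi35 and the exonuclease Isg20 rose with them. Gbp3 fell 6.31-fold, and Irgm1, Stat2, Ifit2, Mx2 and Rsad2 fell. That made 8 genes higher and 6 lower, or 51.9% of the 27 tested, against 48.5% of all tested genes in either direction (24.5% higher and 23.9% lower). Without the filter 9 were higher and 6 lower (42.9%), against 35.8% of 18193 genes. The arrays did not overlap in 25 of the 35, against 67.3% of all genes. The median log2 difference of the 35 genes was 0.13, against 0.06 over all genes. Without OPCL61 array 1 the count was 9 genes, 6 higher and 3 lower. Cell type markers moved in the same comparison. Of 6 OPC markers 5 were lower, with sums of 1570 and 1042 in OPCL61 and 27456 and 31466 in OPC, and of 7 astrocyte markers 4 were lower, with sums of 792 and 589 in OPCL61 and 13480 and 14114 in OPC. Their part in these results was not tested.

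Of the class I chains, 3 of 4 were called, all higher. B2m had 12.41 and 12.33 in OPCL61, against 10.82 and 10.51 in OPC. Both OPCL61 arrays were higher, by 1.71 ± 0.13 (adjusted p = 9.35e-06). H2-D1 had 9.48 and 9.81 in OPCL61, against 8.17 and 7.64 in OPC, a difference of 1.74 ± 0.29 (adjusted p = 0.000995). H2-K1 had 9.10 and 9.47 in OPCL61, against 7.88 and 7.27 in OPC, a difference of 1.72 ± 0.31 (adjusted p = 0.00161). In these 3 genes no OPCL61 array overlapped OPC, and the calls held whichever array was left out. Nlrc5, the transactivator of class I genes, had 4.23 and 4.67 in OPCL61 and 3.55 and 3.66 in OPC, all under 5.183, and was called only without the filter (0.84 ± 0.19, adjusted p = 0.00606 over 18193 genes). Tapbp had 8.18 and 8.46 in OPCL61 and 7.43 and 7.56 in OPC, with no overlap and a difference of 0.83 ± 0.18 (adjusted p = 0.0037). The transporter genes Tap1 and Tap2 and the immunoproteasome genes Psmb8 and Psmb10 did not pass, with differences between -0.25 and 0.13.

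Among the regulators and effectors, Isg20, an exonuclease that degrades RNA, had the widest rise. It had 7.12 and 7.69 in OPCL61, against 4.77 and 4.97 in OPC, where both arrays lay under 5.183, and the difference was 2.54 ± 0.26 (adjusted p = 4.94e-05). Ifi35 had 7.32 and 6.42 in OPCL61, against 5.63 and 4.83 in OPC, a difference of 1.65 ± 0.31 (adjusted p = 0.00198). The groups did not overlap in either gene. Irf9 had 6.47 and 6.15 in OPCL61, against 5.74 and 5.40 in OPC, a difference of 0.74 ± 0.18 (adjusted p = 0.00783), lost without OPC array 2 (adjusted p = 0.0682) or OPCL61 array 1 (0.0524). Irf1 had 7.93 and 7.95 in OPCL61, against 7.58 and 7.33 in OPC, a difference of 0.48 ± 0.16 (adjusted p = 0.0292). It was lost without OPC array 2 (adjusted p = 0.179), OPCL61 array 1 (0.0754) or OPCL61 array 2 (0.0929). Stat2 went the other way from Irf9, with 4.98 and 4.97 in OPCL61 and 5.51 and 5.25 in OPC, a difference of -0.40 ± 0.14 (adjusted p = 0.0359). The Stat2 call was lost without OPC array 1 (-0.27, adjusted p = 0.213), OPCL61 array 1 (0.0902) or OPCL61 array 2 (0.103), and its other probe set read 0.26, under 5.183 throughout.

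Gbp3 had 5.58 and 5.12 in OPCL61, against 8.27 and 7.75 in OPC. OPC was the only group in which both Gbp3 arrays were above 7, and the difference was -2.66 ± 0.33 (adjusted p = 0.000156). Irgm1 had 6.49 and 6.57 in OPCL61 and 7.40 and 7.27 in OPC, a difference of -0.80 ± 0.23 (adjusted p = 0.0166). The Irgm1 call was lost without OPC array 1 (adjusted p = 0.0811), OPC array 2 (0.0513) or OPCL61 array 1 (0.0637). Ifit2 had 6.88 and 5.88 in OPCL61 and 8.03 and 7.07 in OPC, a difference of -1.17 ± 0.35 (adjusted p = 0.0198), while its 2 arrays were 1.00 apart in OPCL61 and 0.96 in OPC. Without OPC array 1 it was -0.69 (adjusted p = 0.153), and without OPCL61 array 2 -0.67 (adjusted p = 0.145). Mx2 had 5.13 and 5.01 in OPCL61 and 5.57 and 5.54 in OPC, a difference of -0.48 ± 0.10 (adjusted p = 0.00359). Rsad2, viperin, which blocks virus budding, had 5.38 and 5.67 in OPCL61 and 5.95 and 6.02 in OPC, a difference of -0.46 ± 0.16 (adjusted p = 0.0426). It was lost without OPC array 1 (adjusted p = 0.0965), OPC array 2 (0.158) or OPCL61 array 1 (0.215). The RNA sensors Ifih1 and Trim25, with Usp18 and Bst2, did not pass, and Trim25 was under 5.183 in OPCL61 and OPC alike.

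**Figure D4:**
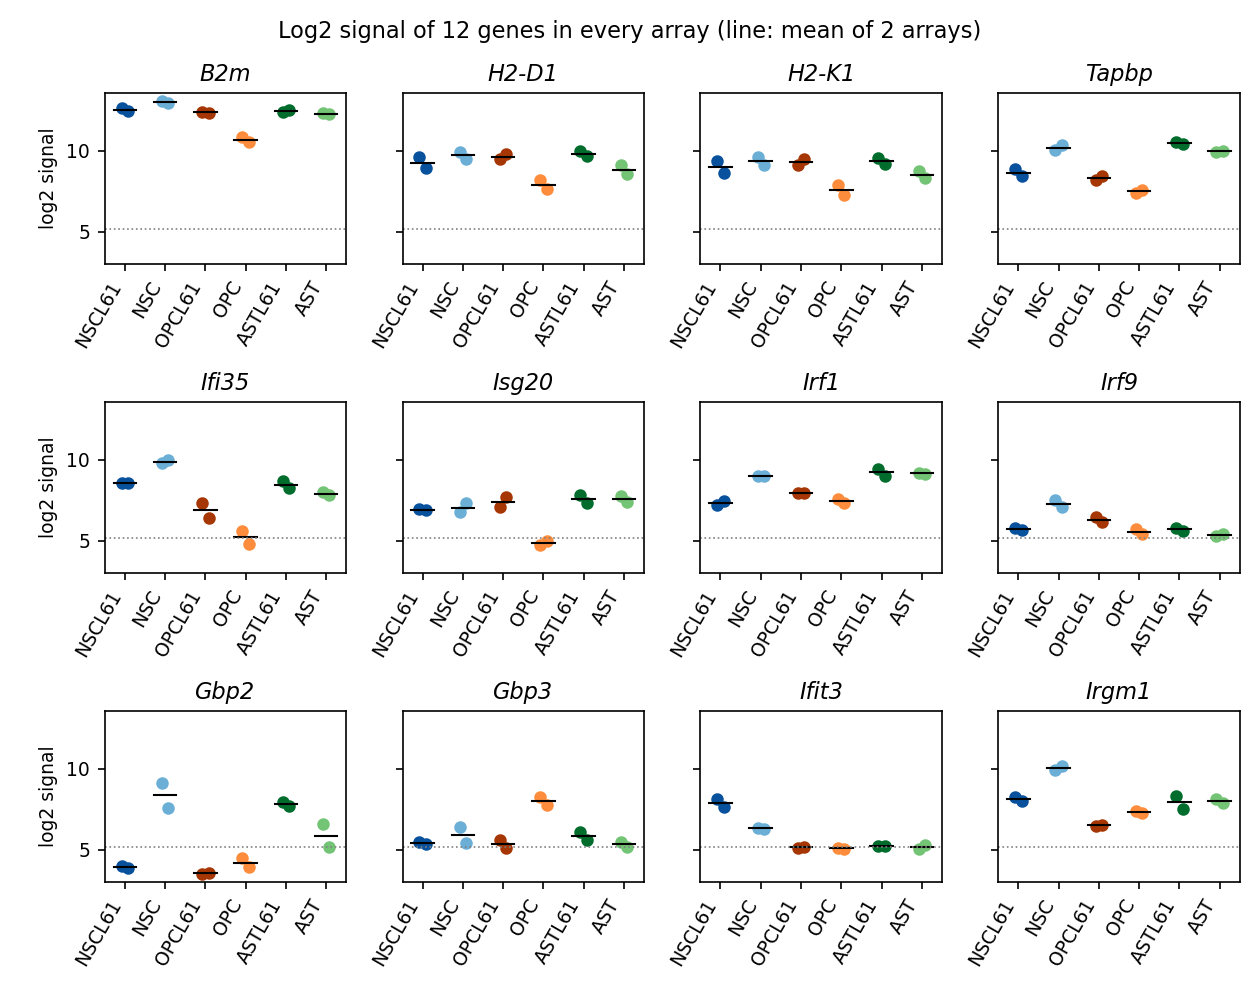
Each panel shows the log2 signal of 1 gene in the 12 arrays, 2 points a group with a bar at their mean, and the dotted line marks 5.183. In B2m, H2-D1 and H2-K1 the OPC points lie below the points of every other group, and in Gbp2 the NSCL61, OPCL61 and OPC points and 1 AST point lie under the dotted line.

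ASTL61 differed from AST in none of the 35 genes by this test, against 0.0234% of all tested genes, which is 3 genes. The count at an unadjusted p under 0.05 was 6 genes, or 22.2% of the 27 tested, against 7.33% of all tested genes, and dropping the filter also gave 0 (0.0165% of 18193 genes). The unadjusted 6 were Gbp2, H2-D1, Xaf1, Tapbp, H2-K1 and Psmb8. Gbp2 had 7.95 and 7.71 in ASTL61, against 6.59 and 5.17 in AST, a difference of 1.95 ± 0.51 (adjusted p = 0.363). H2-D1 had 9.99 and 9.65 in ASTL61 and 9.11 and 8.57 in AST, a difference of 0.98 ± 0.29 (adjusted p = 0.453). Psmb8 had 6.20 and 6.31 in ASTL61 and 5.24 and 5.12 in AST, a difference of 1.07 ± 0.42 (adjusted p = 0.63). In each of these the ASTL61 arrays lay above the AST arrays, but the adjusted p did not pass. B2m had 12.38 and 12.48 in ASTL61 and 12.30 and 12.24 in AST (0.16 ± 0.13, adjusted p = 0.841). Arrays of the groups did not overlap in 20 of the 35 genes, against 37.7% of all genes, and the median log2 difference was 0.17, against -0.02 over all genes.

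Whether the lines changed alike was tested as the difference between their changes. The change in OPCL61 minus that in NSCL61 passed in 14 genes, 11 higher and 3 lower, or 51.9% of the 27 tested, against 37.9% of all tested genes (18% higher and 19.9% lower). Without the filter the shares were 40% of the 35 genes and 27.4% of all. These 2 changes share no array. Without NSC array 1, Usp18 (-2.16), Ifih1 (-1.25) and Bst2 (-0.78) passed too, and without NSC array 2, Psmb8 (1.96), Tap2 (1.32) and Tap1 (0.63) did. Of all tested genes, 17.1% were lower in NSCL61 and 24.5% higher in OPCL61, and the shares called in both lines were not computed. B2m, Ifi35, Irf1, Irf9 and Tapbp were lower in NSCL61 and higher in OPCL61. With no share of all genes beside them, these 5 genes are only described. Their changes differed by 2.95 ± 0.44 in Ifi35 (adjusted p = 0.000744), 2.37 ± 0.25 in Tapbp (8.58e-05), 2.30 ± 0.26 in Irf9 (0.000133), 2.15 ± 0.19 in B2m (2.93e-05) and 2.14 ± 0.22 in Irf1 (8.12e-05). Of these 5, only Tapbp kept both calls whichever array was left out. The NSCL61 calls of B2m and Ifi35 and the OPCL61 calls of Irf1 and Irf9 were lost without some single arrays. Irgm1 and Stat2 were lower in both lines, but their OPCL61 calls were also lost without some single arrays. The fall of Irgm1 was smaller in OPCL61 than in NSCL61 by 1.10 ± 0.33 (adjusted p = 0.0245), a call lost without NSC array 2 (adjusted p = 0.0703) and 3 other arrays taken singly. H2-D1 and H2-K1 differed by 2.19 ± 0.42 (adjusted p = 0.00283) and 2.08 ± 0.45 (adjusted p = 0.00533).

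The change in ASTL61 minus that in NSCL61 passed in 13 genes, 11 higher and 2 lower, or 48.1% of the 27 tested, against 25.3% of all tested genes. Without the filter the shares were 37.1% of the 35 genes and 17.8% of all. Gbp2 differed most, by 6.38 ± 0.72 (adjusted p = 0.000255), since it was 4.43 lower in NSCL61 than in NSC and 1.95 higher in ASTL61 than in AST. Xaf1 differed by 2.17 ± 0.30, Psmb8 by 2.16 ± 0.60, Tapbp by 2.07 ± 0.25 and Irf9 by 1.89 ± 0.26. Ifit3 differed by -1.50 ± 0.23 and Cd274 by -1.28 ± 0.36. Leaving out single arrays ended the call for 6 of the 13: Stat2, Ifi35, Psmb8, B2m, H2-D1 and Cd274. The count was 8 without AST array 2 and 8 without ASTL61 array 1. Without NSC array 1 the Psmb8 difference was 1.32, and Usp18 (-2.10), Ifih1 (-1.39), Bst2 (-0.80) and Trim25 (0.97) passed too. Without NSC array 2, Gbp3 (1.49), Tap2 (1.43) and Tap1 (0.81) did. The change in OPCL61 minus that in ASTL61 passed in 5 genes (Isg20 2.56, B2m 1.55, Mx2 -0.53, Gbp2 -2.60 and Gbp3 -3.16), or 18.5% of the 27 tested, against 35.4% of all tested genes. Mx2 was lost without OPCL61 array 2 (adjusted p = 0.0523) or AST array 1 (0.0663), and Gbp2 without 4 arrays taken singly, with adjusted p between 0.0564 and 0.0828. The count was 8 without ASTL61 array 2.

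The parents were compared to ask where the genes started. These comparisons share parent arrays with those above. OPC had 1 gene higher and 17 lower than NSC, or 66.7% of the 27 tested, against 51.5% of all tested genes in either direction, of which 27.2% were higher and 24.3% lower. Without the filter the 35 genes gave 1 higher and 19 lower, or 57.1%, against 38.2% of all genes. Gbp3 was the gene higher in OPC, by 2.11 ± 0.33 (adjusted p = 0.00054). Ifi35 was lower in OPC by -4.65 ± 0.31 (adjusted p = 2.1e-06), with 5.63 and 4.83 in OPC against 9.79 and 9.96 in NSC. Gbp2 differed by -4.15 ± 0.51, Trim25 by -3.91 ± 0.33, Irgm1 by -2.72 ± 0.23, Tapbp by -2.70 ± 0.18 and B2m by -2.32 ± 0.13 (adjusted p = 7.73e-07). Bst2, with 4.71 and 4.88 in OPC against 7.43 and 6.74 in NSC, differed by -2.30 ± 0.21. H2-D1 and H2-K1 differed by -1.82 ± 0.29 and -1.78 ± 0.31. Psmb8 was lost without NSC array 1 (-0.29, adjusted p = 0.307), OPC array 1 (0.217) or OPC array 2 (0.0722), and without NSC array 2 it was -1.97, where Usp18 (-1.77), Tap2 (-1.13) and Tap1 (-0.75) passed too. Ifih1 differed by -1.59, and by -0.95 without NSC array 1. All 7 fibroblast and pericyte markers were also lower in OPC than in NSC, while 4 of 6 OPC markers and 6 of 7 astrocyte markers were higher, and their part was not tested.

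AST had 0 genes higher and 11 lower than NSC (40.7% of the 27 tested), against 30.4% of all tested genes. Without the filter there were 13 lower (37.1%), against 21.3% of all genes. Trim25 differed by -3.29 ± 0.33 (adjusted p = 0.000155), Gbp2 by -2.48 ± 0.51 (0.00598), Irgm1 by -2.06 ± 0.23 (0.000277), Ifi35 by -1.97 ± 0.31 (0.00179) and Irf9 by -1.92 ± 0.18 (0.000124). B2m was lower by -0.71 ± 0.13 (adjusted p = 0.00406). H2-D1 passed by little (-0.88 ± 0.29, adjusted p = 0.0484) and was lost when any 1 of the 4 arrays was left out, with adjusted p between 0.0526 and 0.279. Irf1 and Tapbp did not pass, with 0.16 (adjusted p = 0.487) and -0.23 (adjusted p = 0.368). Without NSC array 2 the differences of several genes lay further below 0. They were -0.71 in Bst2, -1.82 in Usp18, -1.41 in Ifih1, -1.05 in Gbp3, -1.62 in Psmb8, -0.85 in Tap1 and -1.03 in Tap2. Ifit1, Oasl2 and Psmb9, at 5.71, 5.44 and 5.22 in NSC array 1, then entered the test through that array alone. OPC against AST gave 3 genes higher and 11 lower (51.9% of the 27 tested), against 51.7% of all tested genes (26.1% higher and 25.6% lower). Without the filter the 35 genes also gave 3 higher and 11 lower (40%), against 39% of all genes. The count was 9 without OPC array 2 or 8 without AST array 1. Lower in OPC were Isg20 (-2.73 ± 0.26), Ifi35 (-2.68 ± 0.31), Tapbp (-2.47 ± 0.18), Bst2 (-1.94 ± 0.21), Irf1 (-1.71 ± 0.16) and B2m (-1.61 ± 0.13, adjusted p = 9.67e-06). Gbp3 was higher in OPC by 2.67 ± 0.33 (adjusted p = 0.000125).

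Between the lines no tested class I chain passed in any pair, and Nlrc5 was not tested. The H2-K1 probe set used had means of 9.37 in ASTL61 and 8.98 in NSCL61. The 2 further ones above 5.183 lay wider apart, with 8.82 and 6.79 in ASTL61 and 7.93 and 5.84 in NSCL61, and were not tested. B2m differed by -0.17 ± 0.13 (adjusted p = 0.401) in OPCL61 against NSCL61, -0.11 ± 0.13 (0.579) in ASTL61 against NSCL61 and -0.06 ± 0.13 (0.782) in OPCL61 against ASTL61. The range of the 3 group means was smaller among the lines than among the parents in 22 of the 35 genes (62.9%), and in 62.1% of all genes. OPCL61 had 2 genes higher and 9 lower than NSCL61 (40.7% of the 27 tested), against 26.7% of all tested genes called, and 6 in all without NSCL61 array 1. Trim25 differed by -4.03 ± 0.33 (adjusted p = 3.47e-05), Ifit3 by -2.75 ± 0.17 (4.29e-06), Bst2 by -2.73 ± 0.21 (2.14e-05) and Ifih1 by -2.19 ± 0.34 (0.00163). ASTL61 had 4 higher and 7 lower than NSCL61 (also 40.7%), against 32.7% of all tested genes (16.1% higher and 16.6% lower), and 5 in all without NSCL61 array 1. Without the filter there were 13 (37.1%), against 23.1% of all genes. Gbp2 was 3.89 ± 0.51 higher in ASTL61 (adjusted p = 0.000435), Irf1 1.88 ± 0.16 (3.31e-05) and Tapbp 1.83 ± 0.18 (7.54e-05), while Trim25 (-2.94 ± 0.33) and Ifit3 (-2.65 ± 0.17) were lower. OPCL61 had 1 higher and 10 lower than ASTL61 (also 40.7%), against 36.6% of all tested genes, and 11 without the filter (31.4%), against 25.6% of all genes. There Gbp2 differed by -4.26 ± 0.51 (adjusted p = 0.00024) and Tapbp by -2.16 ± 0.18 (2.58e-05).

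Genes up and down the same pathway were read from lists chosen with earlier results of these data known. Of 10 interferon genes listed, 8 were measured, and 7 of these did not pass the filter. Ifnz, the 1 tested, had values between 5.70 and 6.65 and was not called in a line against its parent, and Ifnb1 lay between 3.83 and 4.49 in all 12 arrays, under 5.183. The receptor chains were above 5.183 in every array, with group means between 8.19 and 8.81 for Ifnar1 and 7.74 and 8.75 for Ifnar2. Of 15 receptor, kinase and regulator genes 14 were tested, with 2 higher and 4 lower in NSCL61 (42.9% of those tested, against 37.8% of all tested genes) and 6 higher and 1 lower in OPCL61 (50%, against 48.5%). The interferon gamma receptor chain Ifngr2 had 7.84 in both NSCL61 arrays and 9.01 and 8.87 in NSC (-1.10 ± 0.12, adjusted p = 8.19e-05). It had 8.07 and 7.83 in OPCL61 and 7.32 and 7.39 in OPC (0.60 ± 0.12, adjusted p = 0.00216). The kinase Jak2 was lower in OPCL61 by -1.28 ± 0.24 (adjusted p = 0.00165).

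Of 13 measured genes of nucleic acid sensing, all tested, 2 were higher and 4 lower in NSCL61 (46.2%, against 37.8% of all tested genes), and 5 higher and 0 lower in OPCL61 (38.5%, against 48.5%). Tlr3, a receptor for double-stranded RNA, had 9.43 and 9.56 in NSCL61 against 5.55 and 5.97 in NSC (3.74 ± 0.26, adjusted p = 6.41e-06). It was also higher in OPCL61, with 8.55 and 9.24 against 6.91 and 6.39 in OPC (2.25 ± 0.26, adjusted p = 9.6e-05). Of 36 further interferon-induced genes 28 were tested, with 2 higher and 12 lower in NSCL61 (50% of those tested, against 37.8%) and 8 higher and 2 lower in OPCL61 (35.7%, against 48.5%). Ifitm3, which blocks virus entry at membranes, had 10.98 and 10.89 in OPCL61, against 5.60 and 5.62 in OPC (5.32 ± 0.23, adjusted p = 2.34e-07). In NSCL61 the lectin gene Lgals9 had 4.37 and 4.24, against 7.57 and 8.41 in NSC (-3.69 ± 0.32, adjusted p = 2.48e-05), and Ifi27 differed by -3.40 ± 0.27 (adjusted p = 1.6e-05). Of 15 further class I genes 13 were tested, with 0 higher and 6 lower in NSCL61 (46.2% of those tested, against 37.8%) and 4 higher and 1 lower in OPCL61 (38.5%, against 48.5%). The peptide trimming gene Erap1 was in both counts, with -1.51 ± 0.29 (adjusted p = 0.00281) in NSCL61 and 1.50 ± 0.29 (adjusted p = 0.00199) in OPCL61. No gene of these lists passed in ASTL61.

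Second probe sets of the same genes were compared where they lay above 5.183. The other B2m probe set read -0.44 in NSCL61 and 1.77 in OPCL61, and the other Tapbp one -1.57 and 0.64. The other Gbp2 probe set read -3.85 in NSCL61. For Ifi35 the other 2 read -1.14 and -1.08 in NSCL61 and 0.85 and 0.66 in OPCL61, so the OPCL61 rise was smaller there than the 1.65 given above. Of 4 further H2-D1 probe sets above 5.183, 3 read between 1.24 and 1.67 in OPCL61 and 1 read 0.27, and the 2 further H2-K1 probe sets read 1.89 and 1.44. Those H2-K1 probe sets also read -0.84 and -0.71 in NSCL61 and 1.56 and 1.46 in ASTL61, further from 0 than the -0.37 and 0.86 of the one used.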

How the data were processed

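RNA of 12 samples in 6 groups was labelled and hybridised to mouse oligonucleotide arrays. The authors deposited log2 signals for 45101 probe sets, 64 of them controls. How the signals were background-corrected and normalised is not given in the sources used here, so they were taken as deposited. Precision is limited by having 2 arrays a group. Of the probe sets in the array's annotation, 34958 have a single symbol and 932 have several, and 34754 of the single ones were found in RefSeq (GRCm38.p6), which gave the promoters and coordinates.

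Genes with some group mean over 5.183 were tested, 12835 in all. The 12 arrays were fitted as 6 group means with limma 3.58.1 (lmFit, contrasts.fit, eBayes) under R 4.3.3, with data.table (version 1.17.8) for reading, leaving 6 residual degrees of freedom. The steps were tested on simulated data. Errors are SE from this model. Shares of the 27 tested genes stand beside the share of all tested genes called, and shares of all 35 beside that without the filter. The genes, their roles and the pathway lists were chosen with earlier results of these data known. Any of the 35 genes could be named, with full statistics where it passed in a line against its parent, and of each pathway list up to 3 genes with the smallest p.

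Other settings tried were quantile normalisation, median centring, no filter or one at 7.562 (the 75th percentile of values), averaging the probe sets of a gene, blocking by replicate number, a trended and robust prior, fitting only the arrays compared, and dropping each array. Hras and Trp53 transcripts are not analysed here.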

Additional observations from a re-analysis of the deposited data

Results flagged for a closer look

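The change from parent to line differed between cell types, by a limma interaction contrast with adjusted p under 0.05, in the following genes. The OPCL61 change minus the NSCL61 change was 3.77 in Gbp2, 2.95 in Ifi35, 2.66 in Isg20, 2.37 in Tapbp, 2.30 in Irf9, 2.19 in H2-D1, 2.15 in B2m and 2.14 in Irf1. It was 2.08 in H2-K1, 1.89 in Xaf1, 1.10 in Irgm1, -0.91 in Rsad2, -1.50 in Ifit3 and -2.16 in Gbp3.

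The ASTL61 change minus the NSCL61 change was 6.38 in Gbp2, 2.17 in Xaf1, 2.16 in Psmb8, 2.07 in Tapbp, 1.89 in Irf9, 1.85 in Ifi35, 1.84 in Irgm1 and 1.72 in Irf1. It was 1.43 in H2-D1, 0.72 in Stat2, 0.60 in B2m, -1.28 in Cd274 and -1.50 in Ifit3. Both of these sets share the NSCL61 and NSC arrays.

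The OPCL61 change minus the ASTL61 change was 2.56 in Isg20, 1.55 in B2m, -0.53 in Mx2, -2.60 in Gbp2 and -3.16 in Gbp3. In Gbp2 all values of OPCL61 and OPC lay under 5.183, and in Mx2 both OPCL61 arrays did.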

How the results depend on the processing

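In each of the 12 comparisons, no called difference of the 35 genes changed sign in any setting in which the gene was tested. Some calls held in every setting listed above in which the gene was tested. They were 9 of 13 in NSCL61 against NSC, 8 of 14 in OPCL61 against OPC and 12 of 14 between the OPCL61 and NSCL61 changes. They were also 7 of 13 between the ASTL61 and NSCL61 changes and 3 of 5 between the OPCL61 and ASTL61 changes. The 9 include Cd274, whose call was lost in fits added later. With no filter it was lost without NSC array 2 (0.96) and without NSCL61 array 1 (0.75). With the filter at the 75th percentile, which left fewer genes to test, the count of genes called was 8 in NSCL61 against NSC, 7 in OPCL61 against NSCL61, 7 in ASTL61 against NSCL61 and 8 between the ASTL61 and NSCL61 changes. With 1 array left out, the counts ran between 9 and 15 in NSCL61 against NSC, 9 and 11 in OPCL61 against OPC, 10 and 19 in AST against NSC, 8 and 12 in OPC against AST, 6 and 10 in OPCL61 against NSCL61, 5 and 10 in ASTL61 against NSCL61, 8 and 15 between the ASTL61 and NSCL61 changes and 4 and 8 between the OPCL61 and ASTL61 changes. In such fits the lone array is assumed to vary like the other groups. The median log2 difference in ASTL61 against AST, 0.17 in the full data, ran between 0.10 and 0.27. The cause of these moves was not tested.

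Arrays of the same number did not deviate together between line and parent, with correlations of 0.07 in the NSC pair, 0.02 in the OPC pair and -0.03 in the AST pair, and the labels give no pairing. A replicate block gave 12 genes in NSCL61 against NSC, 13 in OPCL61 against OPC and 0 in ASTL61 against AST. Between ASTL61 and NSCL61 the correlation was -0.19, and the block gave 12 genes with the numbers as labelled and 11 with them crossed, a setting chosen after seeing the data. Fits without the filter and with 1 array left out, for Oasl2, Nlrc5 and Cd274, were added after seeing the data. Signals near 5.183 limit what can be seen for the 8 untested genes.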

Other observations

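Some genes of the pathway lists outside the 35 moved in NSCL61, in OPCL61 or in both. Sting1, the adaptor of the cytosolic DNA sensing pathway, had 8.36 and 8.68 in NSCL61, against 6.75 and 5.88 in NSC, a log2 difference of 2.21 ± 0.27 (limma adjusted p = 0.000199). Ifitm1, a relative of Ifitm3, had 9.56 and 8.89 in OPCL61, against 5.27 and 5.15 in OPC, a difference of 4.02 ± 0.29 (adjusted p = 4.99e-06). Myd88, the adaptor of most Toll-like receptors, was higher in OPCL61 than in OPC by 1.98 ± 0.19 (adjusted p = 3.61e-05), and Mavs, the adaptor of the RNA sensors, by 1.31 ± 0.20 (adjusted p = 0.000486). Stat3, which carries cytokine signals of the IL-6 family, was lower in NSCL61 than in NSC by -1.74 ± 0.31 (adjusted p = 0.00207). Psme1, a proteasome activator subunit induced by interferon gamma, differed by -0.77 ± 0.12 in NSCL61 (adjusted p = 0.00115) and 0.69 ± 0.12 in OPCL61 (adjusted p = 0.00142). Of 3 constitutive proteasome genes, 0 were higher and 1 lower in NSCL61 (33.3%, against 37.8% of all tested genes). The lower gene was Psmb5 (-0.55 ± 0.11, adjusted p = 0.00407). In OPCL61 2 were higher and 0 lower (66.7%, against 48.5%), among them Psmb7 with 0.59 ± 0.10 (adjusted p = 0.00111). Of 7 measured class II genes 3 were tested. Of these, 1 was lower in NSCL61 (33.3%, against 37.8%) and 1 in OPCL61 (33.3%, against 48.5%). They were Cd74 in NSCL61 (-0.41, adjusted p = 0.0497) and H2-DMa in OPCL61 (-0.76 ± 0.17, adjusted p = 0.00551). Cd68, a lysosomal protein used as a macrophage marker, had 7.31 and 6.62 in NSCL61 against 4.43 and 4.40 in NSC, and 7.86 and 7.26 in OPCL61 against 4.45 and 4.24 in OPC, while Ptprc stayed under 5.183 in all 12 arrays.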
